A study of Mus musculus with 2 samples.

Results

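The cells described here are the G2/M-phase macrophages of a culture on its way to osteoclasts (OCs), that is, the macrophages with the highest share of transcripts used around cell division. They are 989 of 9902 kept cells, 484 of 4848 in the control library and 505 of 5054 in the mutant library. A cell was kept with at least 500 detected genes, at most 10% of its unique molecular identifiers (UMIs, each marking a captured mRNA molecule) from mitochondrial genes, at least 5000 UMIs, and fewer than 3 UMIs over the OC genes Ctsk, Mmp9 and Dcstamp. The members are the top 10% of kept cells in each library by the share of UMIs in Ccnb1, Cdc20, Cenpf, Ube2c, Plk1, Hmmr and Aspm. Because the cells were selected on these 7 genes, the values of these genes, and any comparison of the members with the rest of their own library, describe the choice and were not tested.

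The scRNA-Seq data come from bone marrow-derived monocytes (BMDMs) of mice aged 4 to 6 weeks, induced with RANKL at 100 ng/ml and M-CSF at 50 ng/ml and collected 24 h after RANKL. The control library is labelled CONTROL, with no further genotype given, and the other LysM-Cre;Arid1afl/fl, called mutant from here on. In that line the Lyz2 locus drives, in the myeloid lineage, a recombinase that deletes loxP-flanked Arid1a sequence. Arid1a encodes a DNA-binding subunit of the BAF remodeler, and cells that escaped recombination can remain in the culture. Each genotype is 1 library, so no difference between them has a replicate check. Intervals in parentheses are 95% intervals that cover counting error only. For the median of a list, the limits are the medians of its genes' 95% limits. They are not a 95% interval of that median and leave out the spread over genes.

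A dividing cell copies its DNA in S phase and then builds a spindle in G2 and M phase. Cyclin B with Cdk1 starts mitosis, Plk1 and the Aurora kinases drive spindle assembly and chromosome attachment, and the anaphase-promoting complex with Cdc20 and Ube2c destroys cyclin B and so ends it. Transcripts of these genes accumulate late in the cycle, whereas those for origin licensing and nucleotide supply peak around the start of S phase. In this system proliferation of macrophage precursors precedes their fusion into OCs.

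Many genes of late cell division carry the letters TTTGAA or TTTAAA near their start site, known as the cell cycle genes homology region, together with CCAAT, while TTTCCCGC is a form of the E2F motif of S-phase genes. These letters were searched on both strands in RefSeq promoters of 300 bases (250 before to 50 after the start site), of which the table (GRCm38.p6) holds 32851 for 27025 genes. TTTAAA reads the same on both strands, and none of the motifs contains another. The lines that follow give 180 bases (150 before to 30 after the start) of the 5 leading score genes, of Prc1, a spindle midzone protein that was among the highest genes outside the score, and of the replication genes Cdc6 and Ccne1 that were among the lowest. Positions were found by exact match in GRCm39. Capitals mark the 4 motifs, on the opposite strand in reverse complement.
Ccnb1 (chr13:100922965-100923144, minus strand): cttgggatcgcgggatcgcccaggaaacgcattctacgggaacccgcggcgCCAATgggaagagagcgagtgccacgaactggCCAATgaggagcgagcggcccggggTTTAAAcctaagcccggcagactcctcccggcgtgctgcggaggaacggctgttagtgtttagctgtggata
Cdc20 (chr4:118294511-118294690, minus strand): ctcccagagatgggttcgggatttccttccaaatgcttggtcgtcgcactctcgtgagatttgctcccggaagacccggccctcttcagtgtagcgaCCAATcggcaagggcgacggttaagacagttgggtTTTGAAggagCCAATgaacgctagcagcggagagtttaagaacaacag
Cenpf (chr1:189420254-189420433, minus strand): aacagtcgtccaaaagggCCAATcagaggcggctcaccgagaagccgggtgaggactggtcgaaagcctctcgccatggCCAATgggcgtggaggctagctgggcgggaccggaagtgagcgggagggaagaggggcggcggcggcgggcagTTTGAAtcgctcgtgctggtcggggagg
Ube2c (chr2:164611699-164611878, plus strand): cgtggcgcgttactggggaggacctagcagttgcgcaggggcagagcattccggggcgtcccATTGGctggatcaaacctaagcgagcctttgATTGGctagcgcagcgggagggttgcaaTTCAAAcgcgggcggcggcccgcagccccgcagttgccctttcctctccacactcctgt
Plk1 (chr7:121758508-121758687, plus strand): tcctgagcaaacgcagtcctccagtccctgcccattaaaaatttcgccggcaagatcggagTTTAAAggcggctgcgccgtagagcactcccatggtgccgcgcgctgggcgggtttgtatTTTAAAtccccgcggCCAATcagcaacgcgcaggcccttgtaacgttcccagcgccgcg
Prc1 (chr7:79944049-79944228, plus strand): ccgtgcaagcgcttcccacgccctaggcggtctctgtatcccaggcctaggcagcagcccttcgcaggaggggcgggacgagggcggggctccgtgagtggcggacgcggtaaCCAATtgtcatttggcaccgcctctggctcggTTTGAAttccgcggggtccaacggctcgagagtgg
Cdc6 (chr11:98798827-98799006, plus strand): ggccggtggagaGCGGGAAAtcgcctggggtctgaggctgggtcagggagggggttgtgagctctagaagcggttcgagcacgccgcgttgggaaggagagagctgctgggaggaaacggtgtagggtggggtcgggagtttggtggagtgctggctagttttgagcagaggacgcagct
Ccne1 (chr7:37806886-37807065, minus strand): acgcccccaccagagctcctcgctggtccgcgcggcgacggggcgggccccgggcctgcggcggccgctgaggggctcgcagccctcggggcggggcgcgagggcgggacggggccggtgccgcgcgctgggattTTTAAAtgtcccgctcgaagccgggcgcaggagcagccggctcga

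Counting position 0 as the start site, TTTGAA began at -18 in Cdc20 and at 2 in Cenpf, and lay on the opposite strand at -29 in Ube2c. In Plk1 it began at 30, past the printed stretch, after TTTAAA at -89 and -29. Hmmr and Aspm had it at 8 and 6. Ccnb1 had TTTAAA at -42 in place of TTTGAA, and CCAAT at -99 and -67. TTTGAA was thus in 6 of the 7 score promoters, against 17.9% of all 32851 promoters and 12.5% of the 8952 promoters of tested genes. In the 6 lists of mitosis genes pooled, which hold no score gene, it was in 47 of 70 promoters (67.1%), with 64 of 77 genes matched. In the spindle and motor list 16 of 18 promoters (88.9%) held it. The 30 promoters of the DNA replication list (25 of 31 genes matched) held it in 3 (10.0%). CCAAT was in 68.6% of mitosis-list and 56.7% of replication-list promoters, against 37.7% for tested genes. TTTCCCGC was in 4.29% and 13.3%, against 2.21%. TTTAAA was in 4 of 7 score, 15.7% of mitosis-list and 13.3% of replication-list promoters, among them that of Ccne1 at -15, against 8.91% for tested genes and 13.2% of all promoters. These matches describe letters in a window, not bound sites.

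The position of TTTGAA was narrower than its presence. Within 50 bases of the start site on either side it was in 39 of 70 mitosis-list promoters (55.7%), in 6 of 7 score promoters, in 1 of 30 replication-list promoters (3.33%) and in 3.32% of the promoters of tested genes. Among the genes higher past the fold in the members of both libraries (described next), 78 of 145 promoters (53.8%) held TTTGAA. Of those outside the score and mitosis lists, 33 of 84 did (39.3%; 65 of 77 genes matched).

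**Figure D1:**
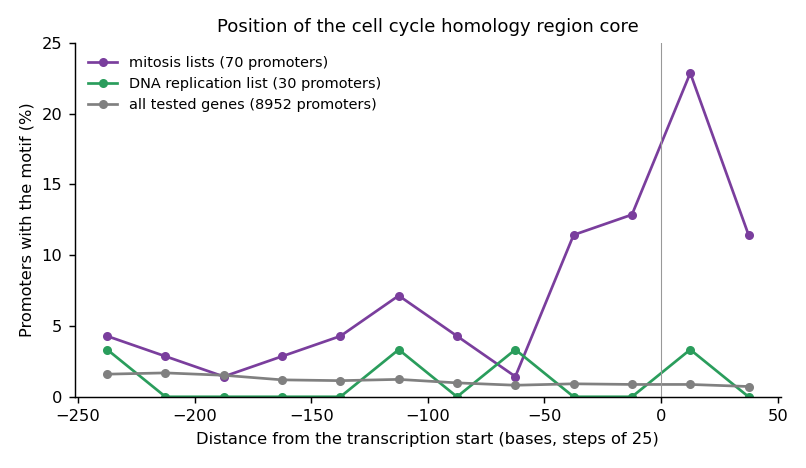
Percent of promoters with TTTGAA on either strand (y axis) in steps of 25 bases from the start site (x axis, bases), for 70 promoters of the pooled mitosis lists, 30 of the DNA replication list and 8952 of tested genes. The mitosis lists peak around the start site, while tested genes stay under 2% at each step.

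The libraries held 6455 control and 5865 mutant barcodes with 164004706 and 131800059 UMIs. The filters left out 111 and 110 barcodes for genes, 75 and 92 for mitochondrial UMIs, 168 and 351 for depth and 1253 and 258 for OC transcripts. Of the cells with OC transcripts, 115 control (9.18%) and 27 mutant (10.5%) had a score above the cut-off of their library. The libraries shared 8 barcodes, and no barcode was a member in both. Arid1a (chromosome 4, 133406304 to 133484080, minus strand, GRCm39), the targeted gene, had 63.1 CPM in control and 23.5 CPM in mutant members (UMIs of a gene per 1000000 UMIs of the same cells), and 50.5 and 19.8 CPM in the rest. Only the 3′ end is read, so transcripts of a recombined allele that keep this end are counted.

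The cut-off was 1399.91 CPM of score genes for the lowest control member and 1399.43 CPM for the next cell outside. In the mutant library these were 1985.48 and 1982.72 CPM. The cut-off thus lay higher in the mutant library. The median member had 2103 CPM in control and 2831 CPM in mutant cells, against 171 and 88.3 CPM in the rest. With the cells chosen by the other 6 score genes, each score gene stood at log2 ratios over the rest of 2.15 (Hmmr) to 3.18 (Cenpf) in the control and 2.70 (Hmmr) to 3.47 (Aspm) in mutant cells. Hmmr and Aspm are spindle proteins, and Cenpf binds kinetochores. These values also describe the choice, since the choices shared 87.4 to 97.7% of control and 88.1 to 98.2% of mutant members with that by all 7 genes. Of a list of 20 macrophage genes, members had Csf1r, the M-CSF receptor, at 239 CPM in control and 354 CPM in mutant. Cd68 had 439 and 517 CPM, and Spi1, which encodes the myeloid factor PU.1, 501 and 559 CPM. The list summed lower in members than in the rest, at 15408 against 18199 CPM in control and 10762 against 14333 CPM in mutant. Lyz2 weighs heavily in these sums, with 151164 of 219298 list UMIs in control members and 52562 of 150367 in mutant members.

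Other cell types were few in the members. Markers of stromal cells summed to 0.351 CPM in control and 0.286 CPM in mutant members, with 4 and 3 of 6 genes at 0, and those of lymphoid and erythroid cells to 0.141 and 0 CPM, with 5 and 6 of 6 at 0. At least 1% of UMIs in 6 neutrophil genes was found in 2 control members (0.413%; 0.0501 to 1.48%) and 14 mutant members (2.77%; 1.52 to 4.61%). At least 0.2% in 4 class II antigen presentation genes was found in 0 and 7 members (1.39%; 0.559 to 2.84%). The 0 of 484 control cells allow up to 0.759%, the exact upper limit. The summed level of the neutrophil genes was 4238 CPM in mutant members, and 35.7 CPM without the 14 neutrophil-rich cells. Control members had 542 CPM, and 12.9 CPM without their 2 such cells. The rest had 301 CPM in control and 1754 CPM in mutant cells. A doublet score marked 18 control members (3.72%) and 10 mutant members (1.98%), against 4.63% and 5.23% of the rest.

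Members were deeper than other cells. Their median was 28483.5 UMIs in the control library (quartiles 20108 and 35761) and 27051 in the mutant library (18975 and 34438). The rest had 23050.5 and 21787 UMIs, so the ratio of medians was 1.24 in each library. Replication-high cells were defined as the top 10% of non-members by the share of UMIs in Mcm2 to Mcm7 and Pcna. Their place within S phase was not tested. These cells had 22332.5 and 18487 UMIs. Members had 1.28 and 1.46 times their median. The distributions overlapped, and 47.3% of control and 42.4% of mutant members lay above the upper quartile of the rest. The median number of detected genes was 4839 and 4905 in members and 4259.5 and 4288 in the rest. Of all kept cells, the top 10% by these replication genes shared 1 cell with the members in each library, or 0.207% of control (0.00523 to 1.15%) and 0.198% of mutant members (0.00501 to 1.10%).

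**Figure D2:**
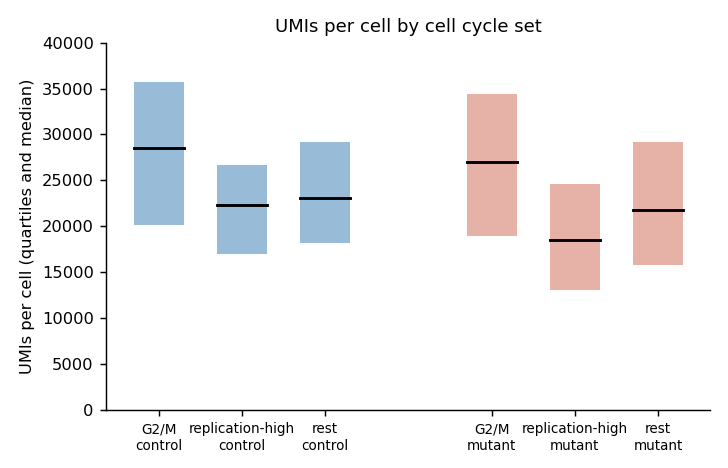
UMIs per cell (y axis, linear) for members, replication-high cells and the rest in each library, as quartile boxes with the median as a line. The boxes of members reach higher than the others in both libraries, and all boxes overlap.

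The members were then compared with the rest of their own library, over the 8627 genes whose mean in kept cells reached 5 CPM. A gene was past the fold at a log2 ratio of at least 1 in either direction. In the control library 145 genes were higher (1.68% of genes tested) and 72 lower (0.835%). In the mutant library 231 were higher (2.68%) and 109 lower (1.26%). Of the higher genes 144 were shared (99.3% of the control and 62.3% of the mutant list), and of the lower genes 51 (70.8% and 46.8%), with 0 genes past the fold in opposite directions. Of the 144 genes, 67 belonged to the score or mitosis lists, and of the 51 genes 12 to the replication list. Over 8620 genes the ratios of both libraries had a Pearson r of 0.84, as a description over genes that share a library and a depth.

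**Figure D3:**
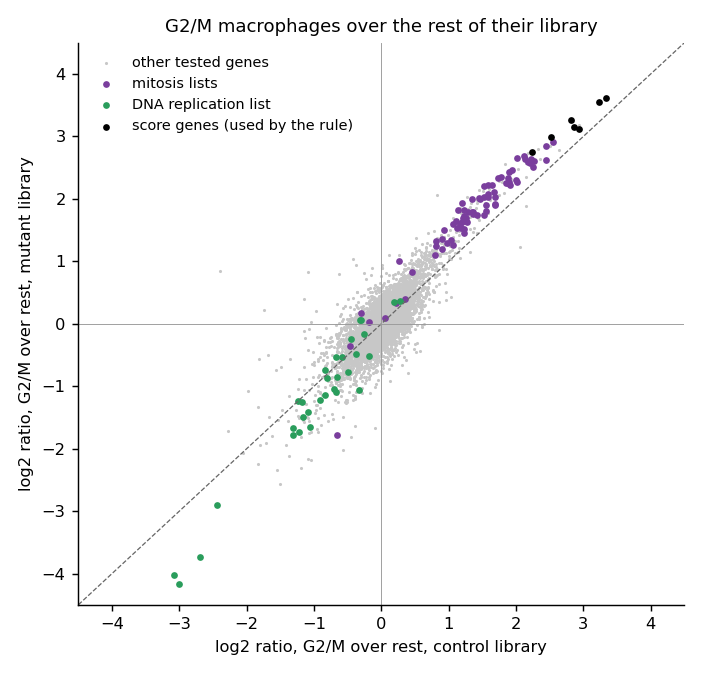
log2 ratio of members over the rest in the control library (x axis) and the mutant library (y axis), with 1 point per gene and a dashed line of equal ratios. Mitosis and score genes lie at the upper right, most above the line, and DNA replication genes at the lower left.

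Outside the score genes, Sapcd2 (chromosome 2, 25262328 to 25268225), linked to spindle orientation, had 22.6 CPM (20.2 to 25.2) in control members and 2.95 CPM in the rest. In the mutant library it had 29.6 CPM (26.8 to 32.6) and 3.28 CPM, so the log2 ratios were 2.94 (2.71 to 3.17) and 3.18 (2.97 to 3.39). Prc1 (chromosome 7, 79944168 to 79966011), which bundles midzone microtubules, had 349 against 59.4 CPM and 481 against 64.3 CPM (2.56 and 2.90). Cdc25b, the phosphatase that activates Cdk1, had 75.2 against 13.9 CPM and 87.2 against 12.2 CPM (2.44 and 2.84). Nusap1, a microtubule binder of the spindle, had 208 against 38.3 CPM and 328 against 53.4 CPM. Fam83d, a spindle protein, reached 2.85 and 3.25, and Kpna2, a nuclear importin, 2.18 and 2.73. Prr11, Arhgef39, Depdc1a and Pimreg were the other genes among the 10 highest outside the score genes by the mean of both ratios, between 2.33 and 2.64 in the control and between 2.64 and 2.85 in mutant cells.

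Mitotic entry genes were higher as a group, with 10 of 12 past the fold in each library and medians of 1.46 (1.37 to 1.55) and 2.01 (1.92 to 2.10), against 0.042 and 0.034 over all genes. Cdk1, the kinase of mitosis, had 259 against 86.4 CPM in the control and 363 against 85.8 CPM in mutant cells. Ccnb2, a cyclin B, had 125 against 37.8 CPM and 202 against 40.2 CPM. The exceptions were Wee1, which inhibits Cdk1 (0.21 and 0.33), and Mybl2, a transcription factor of the cell cycle. Mybl2 had 21.2 against 33.6 CPM in the control (-0.66) and 5.44 against 18.7 CPM in the mutant library (-1.78), where it was lower past the fold.

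Spindle and motor genes were past the fold in 18 of 19 in the control (median 1.89) and in 19 of 19 in the mutant library (2.27). Tpx2, which activates Aurora A, had 267 against 72.8 CPM and 339 against 71.2 CPM. Aurka itself had 120 against 29.7 CPM and 140 against 22.3 CPM. The lowest of the list was the kinesin Kif15, at 0.90 and 1.19. All 7 cytokinesis genes were past the fold in both libraries, with medians of 1.68 and 2.22. Among these the kinesin Kif14 had the highest ratio (2.25 and 2.51) and Arhgap11a the lowest (1.04 and 1.35).

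Kinetochore and passenger complex genes were past the fold in 12 of 15 and 13 of 15 (medians 1.25 and 1.81). Cenpe, the kinetochore motor, had 194 against 40.6 CPM in the control and 277 against 45.4 CPM in mutant cells. Zwint differed least, with 55.7 against 53.6 CPM and 48.7 against 45.6 CPM. In the checkpoint and anaphase-promoting complex list 9 of 12 and 10 of 12 were past the fold (1.16 and 1.64). Fbxo5, the interphase inhibitor of that complex, was not, at -0.31 and 0.18. Pttg1, the securin, was at 0.35 and 0.40.

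Chromosome structure genes divided. Top2a, the topoisomerase of mitotic chromosomes, had 573 against 211 CPM and 829 against 206 CPM, and Smc4 of condensin had ratios of 1.23 and 1.51. The condensin II subunits Ncapd3 (-0.19 and 0.03) and Ncapg2 (-0.46 and -0.35) were not past the fold. In all, 4 of 11 and 8 of 11 were higher, with medians of 0.93 and 1.36. Tubulins had medians of 0.59 and 0.99, with 2 of 8 and 4 of 8 past the fold, led by Tubb4b (1.43 and 1.69). Over the 76 tested genes of the 6 mitosis lists the median was 1.39 (1.33 to 1.49) in the control and 1.81 (1.72 to 1.94) in mutant cells. Their cut-offs differ, so these medians do not compare like cells.

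DNA replication genes went the opposite way, with 12 of 31 lower in control and 17 of 31 lower in mutant cells and 0 higher, at medians of -0.81 (-0.95 to -0.65) and -1.05 (-1.17 to -0.97). Ccne2 (chromosome 4, 11190303 to 11204947), a cyclin E of the G1/S transition, had 6.11 CPM (4.90 to 7.54) in control members and 51.5 CPM in the rest, and 3.08 CPM (2.23 to 4.15) and 50.2 CPM in the mutant library. The log2 ratios were -3.07 and -4.03. Ung, a uracil-DNA glycosylase, had 2.25 against 18.0 CPM and 0.93 against 16.8 CPM (-3.00 and -4.17). Ccne1, the other cyclin E, and Cdc6, which loads the replicative helicase, were at -2.70 and -3.74 and at -2.44 and -2.90. E2f7, a repressor of E2F genes, had -1.80 and -1.94. Not all genes of the list were low: Rrm1, a subunit of ribonucleotide reductase, was at 0.18 and 0.35, and Tyms, thymidylate synthase, at 0.28 and 0.37.

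Besides these, the 10 lowest genes held Slc7a11, the cystine transporter (-1.56 and -2.34), Gdf15, a stress cytokine (-1.50 and -2.57), Cxcl3, a chemokine (-2.28 and -1.72), Rnf227 (-2.05 and -2.07) and Atp6v0d2, a proton pump subunit of OCs (-1.84 and -2.25). Atp6v0d2 rested on 26 and 27 UMIs in members. Because counting by strand was not stated in the sources used here, genes sharing exon bases with the opposite strand are uncertain to that extent. Prc1, Ccne2 and Ung share 1092, 852 and 553 bases, and of other genes named here, Aurka shares 1510 and Tubb6 2078.

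Against the replication-high cells, the pooled mitosis genes had medians of 0.94 in the control and 1.45 in mutant cells. The replication list had -1.70 and -2.24, against -0.05 and -0.07 over all tested genes. Ccne2 had 106 and 135 CPM in those cells. The replication genes partly chose these cells, so this again describes the choice.

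When kept cells of each library were ordered into 10 equal bins by the score, with the members as the last bin, the lists peaked at different places. The mitosis lists summed to 2332 CPM in the lowest control bin and 12018 CPM in members, and to 2137 and 15006 CPM in the mutant library. The replication list peaked in control bin 6 at 2762 CPM and in mutant bin 7 at 2934 CPM, and stood at 1369 and 1169 CPM in members. Replication-dependent histones, made to package new DNA, peaked in bin 8 of both (1861 and 1778 CPM) and had 1070 and 993 CPM in members. Ccne2 went from 72.0 and 86.2 CPM at its peak to 6.11 and 3.08 CPM in members. The macrophage list had its lowest mutant sum in members (10762 CPM), and its lowest control sum in bin 9.

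**Figure D4:**
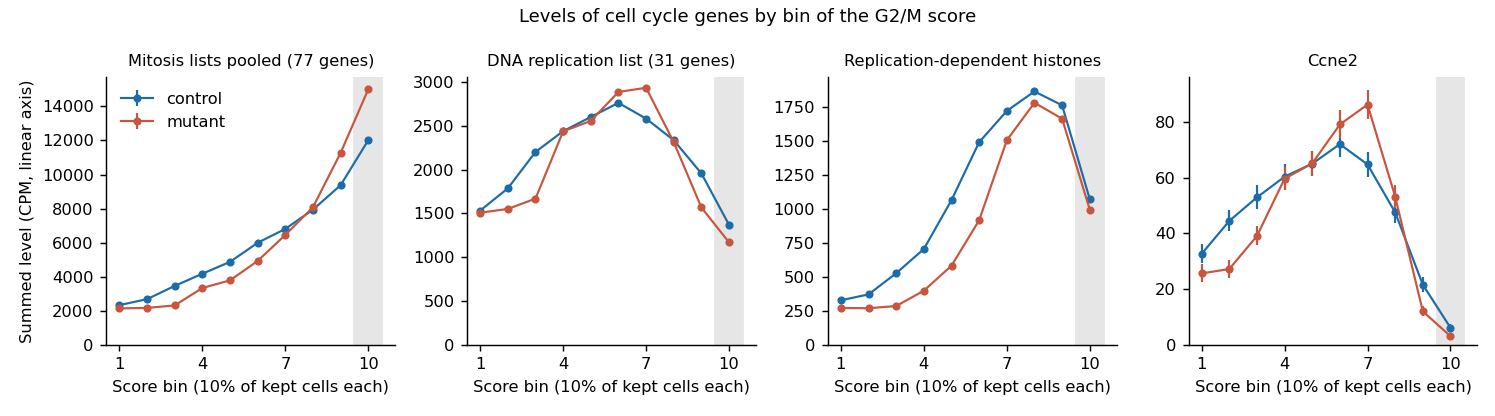
Summed level (y axis, CPM, linear) of the pooled mitosis lists, the DNA replication list, replication-dependent histones and Ccne2 in 10 bins of the kept cells by score (x axis), per library, with 95% Poisson intervals of the counts as bars. Mitosis genes are highest in the members (grey band), while the other panels peak between bins 6 and 8 and are lower in members.

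The members were not uniform along the score. As in the bins above, the order uses the score that chose the members. Values along it thus describe that order and were not tested. Among members ordered by score into 5 bins, from the lowest (97 control and 101 mutant cells) to the highest (96 and 101 cells), histones went from 1386 to 719 CPM in control and from 1478 to 561 CPM in mutant cells. The replication list went from 1618 to 1139 CPM and from 1325 to 1001 CPM. Top2a went the opposite way, from 391 to 729 CPM and from 690 to 1068 CPM, as did Aurka, from 96.5 to 146 CPM and from 98.8 to 169 CPM. Ccna2, the cyclin A of S and G2 phase, had a narrower range, from 151 to 197 CPM and from 201 to 257 CPM over the 5 bins.

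Several other lists had medians near 0 between members and the rest. Interferon-stimulated genes had medians of -0.13 and 0.02, ribosomal protein genes 0.04 and 0.07, and BAF subunits 0.09 and 0.15. Among 22 tested BAF subunits, 1 was lower past the fold in each library, Bcl7a (-1.98 and -1.08). The macrophage list had -0.25 and -0.23, with 1 of 19 past the fold in the control library, the fractalkine receptor Cx3cr1 (57.1 against 28.0 CPM). In the mutant library Cx3cr1 had 271 against 201 CPM. The immediate-early list had -0.19 and -0.16, with Atf3 lower past the fold in the control (-1.02). Of the CDK inhibitors and G1 regulators, 2 of 16 were higher in each library, both of the INK4 family that binds Cdk4 and Cdk6. Cdkn2c had 49.0 against 17.9 CPM in the control and 101 against 23.1 CPM in mutant cells, and Cdkn2d had 101 against 28.5 CPM and 140 against 32.8 CPM. Cdkn1a, the p53 target p21, stood at -0.006 and -0.48. The neutrophil list had medians of 0.74 and 1.23, with 1 of 6 and 5 of 6 higher past the fold, and the class II list -0.73 and 0.84, with 2 of 4 lower in the control and 0 past the fold in mutant cells. Both lists rest on the few cells rich in these transcripts.

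To compare the number of such cells at 1 score, each cell was thinned to 5000 UMIs and cut at 1600 CPM of score genes. In the control library 10.4% of cells (9.59 to 11.3%) lay above, and in the mutant library 13.4% (12.5 to 14.4%), a difference of 2.98 percentage points (1.69 to 4.27). Without thinning, at the control cut-off, the shares were 9.98% and 14.8%, a difference of 4.84 points. In the other alternatives, each leaving out a score gene among them, the difference lay between 2.41 and 3.96 points. With 1 library each, the share cannot be told apart from a difference between cultures.

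The members of the mutant library were then compared with those of the control library. In mutant members 505 genes were higher (5.85% of 8627) and 147 lower (1.7%). With mitochondrial and ribosomal protein genes left out of the totals, the split was 469 and 227. The rest of the cells had 446 higher and 103 lower, of which 391 and 86 were past the fold in members too, and the ratios of members and rest had a Pearson r of 0.93 over 8627 genes. Most genes past the fold in members were so in the rest as well.

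Interferon-stimulated genes were higher as a group. Of 40 listed genes, all tested, 34 were higher and 0 lower in mutant members, with a median of 1.80 (1.63 to 1.98), and 34 were higher in the rest (1.66). Irf7, an inducer of interferon genes, had 73.7 CPM in control and 584 CPM in mutant members. Isg15, a ubiquitin-like modifier, had 137 and 691 CPM. Ifi44 had 1.69 and 41.7 CPM, the highest ratio of the list (4.63), and Irf9, part of the factor that interferon activates, had the lowest (0.58). Single cells followed the sums: the list had a median of 1736 CPM per control member and 7167 CPM per mutant member. Of 484 control members, 27 (5.58%) lay above percentile 10 of mutant members (4449 CPM). The rest had medians of 1925 and 7010 CPM.

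**Figure D5:**
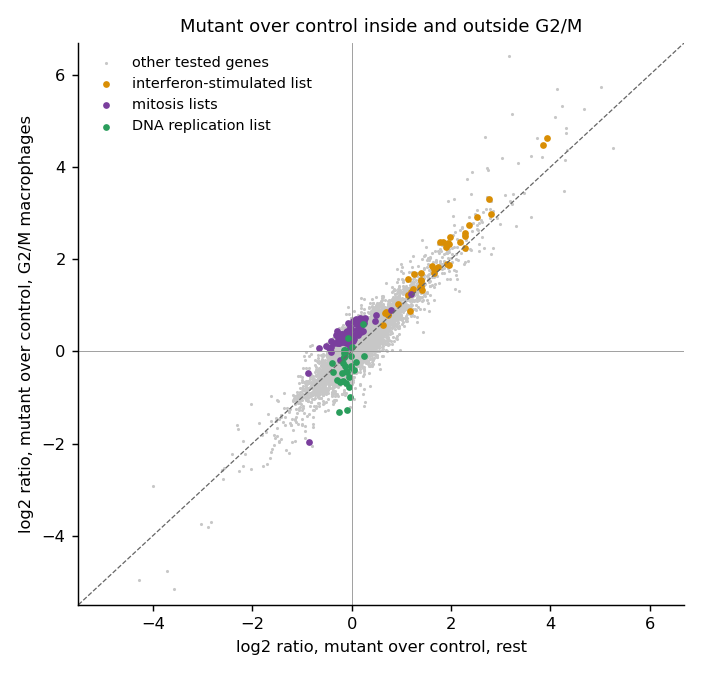
log2 ratio of mutant over control in the rest of the cells (x axis) and in members (y axis), with 1 point per gene. Interferon-stimulated genes lie high on both axes, while most mitosis genes lie above 0 on the y axis and around 0 on the x axis.

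Among the 10 genes with the highest ratios in mutant members, Ly6i, a lymphocyte antigen 6 family member, had 1.83 and 97.8 CPM (5.74; 5.18 to 6.36). Iigp1, an interferon-inducible GTPase, had 0.281 and 11.2 CPM from 4 and 157 UMIs, and Ms4a4c, a membrane protein, 4.15 and 119 CPM. H2-Q7, a class I gene of a family with similar sequences, had 3.51 and 94.1 CPM. Cd34, a progenitor antigen, had 0.492 and 18.8 CPM, and Slfn1 0.773 and 26.3 CPM. Gm13822 was at 4.65.

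Others of the 10 rested on few cells. H2-Aa, a class II chain, had 5 and 416 UMIs (0.351 and 29.8 CPM; 6.41), and 5 mutant members held 86.3% of the latter. Without the 2 control and 21 mutant members rich in neutrophil or class II transcripts, a choice made after seeing the data, it stood at 0.352 and 2.64 CPM (2.91). H2-Eb1, the other class II gene here, went from 5.15 to 1.23. Plac8 had 15 UMIs in 1 control member and 758 in 84 mutant members (5.69). Without those cells it was at 0 and 448 UMIs. Ly6i and Cd34 were at 5.73 and 5.17 without them.

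The genes lowest in mutant members were Plxna4, a semaphorin receptor, with 10.2 and 0.286 CPM (-5.15; -7.05 to -3.77), Emp2, an epithelial membrane protein, with 80.7 and 2.58 CPM (-4.97), and Fxyd2, a regulator of the sodium pump, with 41.0 and 1.50 CPM (-4.77). Spp1, the matrix protein osteopontin, had the most UMIs of the 10, with 1300 and 217 CPM (-2.58; -2.64 to -2.53). Abcb4, Serpinb9b, Dennd5b, Cavin3, Uchl1 and Cd207 lay between -3.81 and -2.60. All 10 were also lower past the fold in the rest.

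The macrophage list was mixed, with 7 of 19 higher and 2 lower in mutant members. The F4/80 gene Adgre1 had 139 and 471 CPM, the Fc receptor gene Fcgr1 21.4 and 129 CPM, and Cx3cr1 57.1 and 271 CPM. Lyz2, the locus that carries Cre, had 10621 and 3762 CPM, and C1qb of complement had 573 and 250 CPM. BAF subunits other than Arid1a (-1.42) were past the fold in 1 case, Bcl7a, at 1.89 with 0.984 and 3.65 CPM. Both levels lay under 5 CPM, where members hold few UMIs. In the rest Bcl7a also had the highest ratio of the BAF list, at 0.997, just under the fold. Ribosomal protein genes had a median of -0.34 in members and -0.36 in the rest.

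For mitosis genes the mutant-over-control values in members were taken at differing cut-offs. The median of the pooled lists was 0.38 in members (0.27 to 0.49) and -0.02 in the rest. In members Pttg1 was higher past the fold (41.7 and 98.5 CPM, 1.24) and Mybl2 lower (-1.96). Pttg1 was past the fold in the rest too (1.19), while Mybl2 was at -0.85 there. With the control cut-off used in both libraries, chosen after seeing the data, the median was 0.28 in members and -0.21 in the rest. Mki67, the proliferation antigen, was lower in both sets, with 388 and 281 CPM in members and 151 and 81.7 CPM in the rest, neither past the fold. Cdkn2c was higher past the fold in members, at 49.0 and 101 CPM (1.05). Cdkn1c, a KIP inhibitor, had 5.13 and 32.8 CPM (2.68). Of the 16 tested genes of their list, 3 were higher past the fold in members and 2 in the rest, there up to 2.22. Tubb6, a beta-tubulin, had 179 and 59.1 CPM (-1.60), and 127 and 25.6 CPM in the rest (-2.32).

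Over genes that averaged 20 CPM or more, those whose mutant-over-control ratio in members lay furthest above that in the rest were Plac8, by 1.55 (0.79 to 2.41), and Arg1, by 1.42 (1.09 to 1.78). All 15 Plac8 UMIs of control members lay in 1 cell, which the Plac8 interval does not take into account. Arg1, the arginase of alternatively activated macrophages, had 5.76 and 77.4 CPM in members and 8.88 and 44.4 CPM in the rest, and 26.0% of its 1082 UMIs in mutant members were in 5 cells. The neutrophil granule genes Camp (1.23) and Ngp (0.89) followed, with 88.8% and 76.0% of mutant member UMIs in 5 cells, and then Slfn9 (0.80). At the other end, with the same limit, were Mybl2 (-1.12; -1.51 to -0.74), Fxyd2 (-1.05), Ccne1 (-1.04), Ccne2 (-0.95) and the histone gene H2bc4 (-0.92). Ccne1 had 5.13 and 2.08 CPM in members but 33.3 and 27.8 CPM in the rest. The part of the differing cut-offs in these differences was not tested.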

How the data were processed

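Single-cell mRNA sequencing used 10x Genomics 3′ v3.1 libraries. The deposited values are raw UMI counts for each gene and barcode. Per the file headers, the authors ran Cell Ranger 6.1.0. GRCm39 is named in the submitters' processing notes. Whether the counts precede the aggregation the methods name, which annotation was used and whether counting used strand are not given in the sources used here. Of 32544 gene identifiers, 31977 matched GENCODE M39, the source of coordinates.

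UMIs were summed over cells and scaled to CPM, with exact 95% Poisson intervals, and exact conditional intervals for log2 ratios. Shares have Clopper-Pearson intervals, and differences of shares or ratios square-and-add ones. A list's interval is the median of its members' limits. PCR copies collapse by UMI. No test was run, since a group is 1 library, and intervals hold counting error alone. Near-identical families (Ly6, Slfn, H2, histones, Ifit3 and Ifit3b) and genes overlapping on the opposite strand are uncertain. Genes named are the 10 highest and 10 lowest in each comparison, and, among genes of at least 20 CPM, 5 on each side by the difference of ratios, plus listed genes. Doublet scores (simulated pairs, 2 per barcode, among 50 neighbours) removed cells only in an alternative, at 0.8% per 1000 barcodes. The members and lists were chosen with earlier results of these data known. Mx1 and Mx2 were not analysed here.

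Alternatives were other shares of cells, thinning to 5000 UMIs, OC-transcript cells kept, doublets left out, equal weight per cell, other totals, floors of 1 and 20 CPM, no depth filter, median of ratios and TMM. The ratio script was tested on simulated data. Analyses used Python 3.11.15, numpy 2.4.6, scipy 1.17.1, pandas 2.3.3, scikit-learn 1.9.0 and matplotlib 3.10.9, and R 4.3.3 with edgeR 4.0.16 for TMM factors only.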

Additional observations from a re-analysis of the deposited data

Results flagged for a closer look

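Some ratios pointed in opposite directions in the libraries or in the sets of cells. None of these differences was tested, since each genotype is 1 library. For members over the rest, Arg1 was at -0.62 in the control and 0.80 in mutant cells, Fxyd2 at 0.13 and -0.92, and Plac8 at -1.16 and 0.39. The class II list had medians of -0.73 and 0.84, with H2-Aa at -2.39 and 0.85 and H2-Eb1 at -1.08 and 0.83. These rest on few cells, with 5 UMIs of H2-Aa in control members. Without the cells rich in neutrophil or class II transcripts, H2-Aa stood at -0.30 and 0.26 and H2-Eb1 at 1.19 and 0.33, and with OC-transcript cells kept the control values were -0.20 and 0.49. Of 360 listed genes, 14 others were opposite, by at most 0.63.

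For mutant over control, the mitotic entry list had medians of 0.36 in members and -0.11 in the rest, the kinetochore and passenger complex list 0.32 and -0.20, and the tubulins 0.10 and -0.11. Cdc25b stood at 0.21 and -0.19, Kpna2 at 0.26 and -0.29, and H2bc4 at -0.74 and 0.18. Of 360 listed genes, 34 others were opposite, by at most 0.73. Members were chosen by a higher cut-off in the mutant library. Beyond the run with the control cut-off in both libraries, its part in these values was not tested.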

How the results depend on the processing

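No paired analysis was possible because each genotype is 1 library, and leaving out a replicate was not possible for the same reason. Of 164 values of the main counts, list medians and shares under alternatives, 147 kept their direction and stayed close, and 17 moved. With 20% of cells as members, the replication median was -0.55 in the control and -0.80 in mutant cells, and the mutant mitosis median 1.99. Equal weight per cell gave 1.95 for the latter. Totals without mitochondrial and ribosomal protein genes gave 227 genes lower in mutant members. Counts past the fold follow the number of genes tested. At 20 CPM they were 79 higher and 27 lower in control cells, 115 and 51 in mutant cells, and 281 and 62 for mutant over control. At 1 CPM, 188 and 252 were lower in the control and mutant libraries, and 822 higher and 338 lower for mutant over control. The control cut-off in both libraries, added after seeing the data, put the mutant replication median at -0.87. The common score without thinning gave 4.84 points. Over the named genes, members at 5% turned Ltf to -0.37 in the mutant library. Keeping OC-transcript cells turned H2-Eb1 to 0.49 in the control. For mutant over control it turned Acp5 from 1.48 to -0.72. Of 7 tested OC genes, Acp5 was the 1 higher past the fold in mutant members. The filter for OC transcripts had left out 1253 control and 258 mutant barcodes. Leaving out the neutrophil and class II marker cells, also added later, turned H2-Eb1 to 1.19 and S100a9 to -0.26 in the control, and Camp to -1.19, Lcn2 to -1.59, Ltf to -1.20 and S100a9 to -0.022 in the mutant library; these genes mark the cells left out. For the other changes the cause was not tested. Counting each named gene once per comparison and alternative, 3877 values were past the fold in the main run. Of these, 3868 kept their sign and 3781 stayed past it. These counts include the score genes, which the rule used, and the CPM floors, which change no gene's ratio. Part of the agreement was thus fixed in advance. Depth limits genes under about 5 CPM, where a member set holds few UMIs.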
